A study of Mus musculus with 24 samples.

Results

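The 38 genes described here are fibroblast and extracellular matrix genes: collagens, elastic fibre proteins, adhesive and matricellular glycoproteins, small proteoglycans, lysyl oxidases, protease inhibitors, fibroblast surface proteins and contractile proteins. They were chosen by matching the Ensembl identifiers of the 53465 rows of the deposited gene count table to a list of 38 symbols, and each of the 38 was found. All 38 passed the filter on low counts in both fits, the 1 on input RNA (17768 genes) and the 1 on J2-bound RNA (17338 genes). Their levels were measured in 12 tumours of 2153L, a triple-negative mouse mammary carcinoma labelled as p53 knockout, an allele that all groups share. Fragments were grown in cleared mammary fat pads of female BALB/c mice aged 6 to 8 weeks, and dosing began at about 100 mm3. The 4 groups of 3 tumours each were a combination of ORIN1001 and docetaxel, docetaxel alone (10 mg/kg weekly into the peritoneum), ORIN1001 alone (150 mg/kg daily by gavage) and vehicle. Mice on a single drug also received the vehicle of the other. ORIN1001 inhibits the ribonuclease of IRE1α, and docetaxel is a taxane that stabilises microtubules. Each tumour gave an input library of total RNA and a library of RNA captured by the antibody J2, which binds double-stranded RNA. All tumours derive from 1 transplant line and were sequenced in bulk, so matrix RNA of host fibroblasts and of carcinoma cells cannot be told apart, nor can fewer cells of a type and less RNA per cell.

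Fibrillar collagen chains are made in bulk in the endoplasmic reticulum, where they are hydroxylated and folded into triple helices, and are then secreted, trimmed and cross-linked by lysyl oxidases. Network collagens such as type IV form basement membranes under epithelium and around vessels, and elastic fibres are built from elastin on a fibrillin and fibulin scaffold. IRE1α senses unfolded protein in the same compartment, and its ribonuclease splices the Xbp1 mRNA and also cuts further mRNAs (RIDD, regulated IRE1-dependent decay). The study examined RIDD in relation to double-stranded RNA.

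Gene counts per input library ran from 11.9 to 15.7 M (mega counts) in combination tumours, from 3.27 to 63.3 M in docetaxel tumours, from 25.4 to 45.0 M in ORIN1001 tumours and from 28.2 to 34.8 M in vehicle tumours. In J2 libraries they ran from 2.54 to 11.04, from 6.69 to 18.7, from 14.1 to 17.4 and from 12.3 to 14.9 M for the same groups in that order. Docetaxel tumour 3 had an unusual input library, with 67.9% of its counts at ribosomal RNA rows against at most 3.16% in the other 11 inputs, which left 1.05 M other counts. The combination J2 libraries held 22.8% to 57.0% ribosomal counts, docetaxel J2 libraries 1.26% to 15.7%, ORIN1001 J2 libraries 1.32% to 3.31% and vehicle J2 libraries 4.13% to 6.05%. The labelled tissue was checked with marker lists. Epithelial markers such as the keratins summed to between 2146 and 3389 CPM (counts scaled to library depth, with TMM factors) in every input, and the 14 fibroblast-defining markers, which include some of the 38 genes, to between 363.5 and 724 CPM in combination tumours, 210.2 to 2803 CPM in docetaxel tumours, 339.9 to 1009 CPM in ORIN1001 tumours and 319 to 345 CPM in vehicle tumours. The 2803 CPM belonged to docetaxel tumour 3, and the other docetaxel tumours reached at most 409 CPM. Most of the 2803 CPM came from Col1a1 (1824 CPM), Col1a2 (453 CPM) and Col3a1 (359 CPM). Of the 14 markers, 5 had 0 counts in that library (Dcn, Lum, Dpt, Pi16 and Clec3b).

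**Figure D1:**
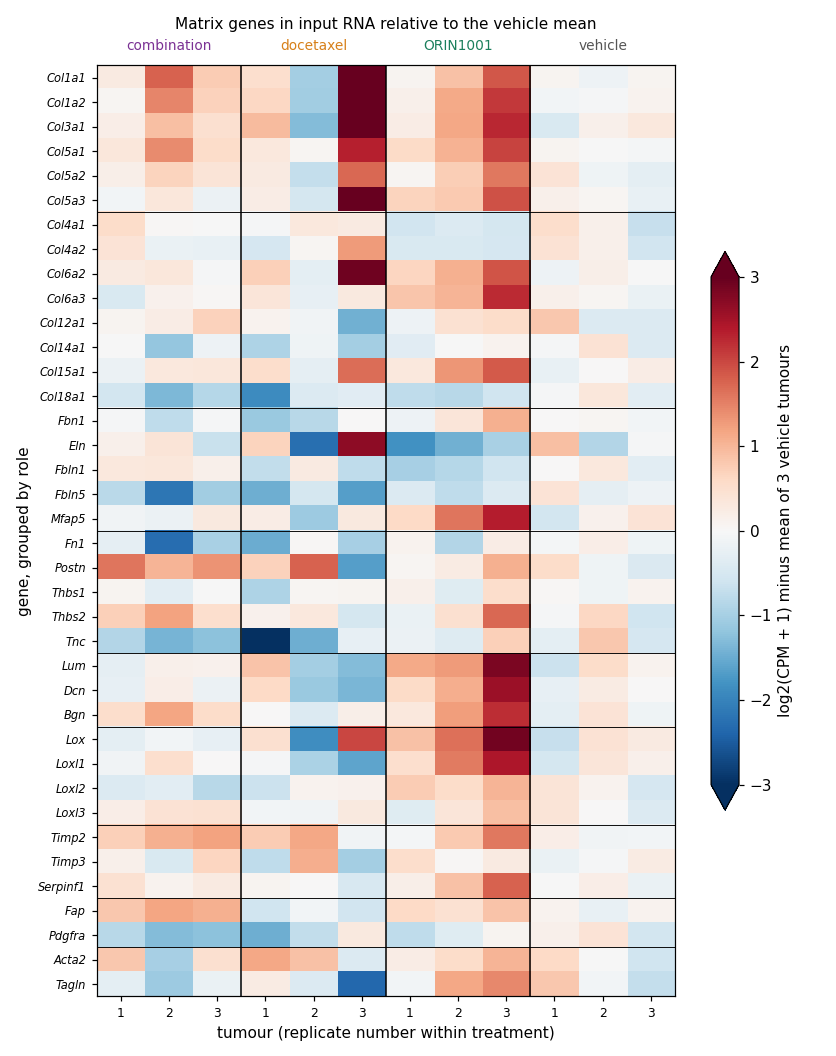
Input levels of the 38 matrix genes (rows, grouped by role) in the 12 tumours (columns), as log2(CPM + 1) minus the mean of the 3 vehicle tumours; colours beyond 3 are clipped. ORIN1001 tumour 3 is red for most genes, docetaxel tumour 3 is dark red for Col1a1, Col1a2, Col3a1 and Col5a3 and blue for Lum, Dcn and Tagln, and all 3 combination tumours are red for Postn and Fap and blue for Fbln5 and Pdgfra.

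The first comparison asked what the IRE1α inhibitor alone does to these genes in input RNA. Fibrillar collagens, small proteoglycans and lysyl oxidases had higher mean levels in ORIN1001 tumours than in vehicle tumours, but no member passed an adjusted p of 0.05 in edgeR's quasi-likelihood test, and no gene of all those tested did (0%). At an unadjusted p under 0.05, 14 of the 38 members stood out (36.8%, against 4.43% of all genes), 13 of them higher (34.2%, against 2.44%) and 1, Fbln1, lower (2.63%, against 1.99%). The median log2 fold change of the 38 was 0.85, against -0.01 over all genes, and 29 of 38 were above 0. Without ORIN1001 tumour 3 the median was 0.43. In 14 members every ORIN1001 tumour was above every vehicle tumour (36.8%, against 6.11% of all genes), and in 4 every ORIN1001 tumour was below (10.5%, against 6.38%). DESeq2 called 1 member, Col6a3 (adjusted p = 0.033), limma-voom called 0, and edgeR called 0 when any single library was left out.

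Among fibrillar collagens, Col1a1, the main chain of type I collagen, had 119, 207 and 407 CPM in ORIN1001 tumours 1 to 3, against 117, 101 and 117 CPM in vehicle tumours. Col3a1, the type III chain that mixes with type I in soft tissue, had 40.5, 78.8 and 169 CPM in ORIN1001 tumours, against 24.8, 38.4 and 43.1 CPM in vehicle tumours. The difference came mostly from ORIN1001 tumours 2 and 3, while tumour 1 was at or near the vehicle range. All 6 fibrillar chains had positive fold changes, with a median of 1.39 on the log2 scale. The fold change of Col1a1 was 1.13 ± 0.95 (SE) and that of Col5a1, a chain of the minor type V collagen that starts fibrils, was 1.40 ± 0.56, both with an adjusted p above 0.05.

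Col6a3, a chain of the beaded-filament type VI collagen, had the smallest p of the 38 genes in this comparison. It had 40.9, 46.8 and 109 CPM in ORIN1001 tumours, against 25.0, 23.2 and 19.5 CPM in vehicle tumours, with no overlap. Its log2 fold change was 1.54 ± 0.35. Next in p was Bgn, which encodes the small proteoglycan biglycan. Bgn had 54.2, 105 and 205 CPM in ORIN1001 tumours, against 35.3, 58.1 and 39.7 CPM in vehicle tumours, so ORIN1001 tumour 1 lay within the vehicle range. Its log2 fold change was 1.45 ± 0.40, and that of Mfap5, which encodes a microfibril-associated glycoprotein of elastic fibres, was 2.06 ± 0.68.

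Lysyl oxidases oxidise lysines so that collagen and elastin can cross-link. Lox, the founding member, had 14.4, 25.2 and 61.3 CPM in ORIN1001 tumours, against 4.19, 10.2 and 9.01 CPM in vehicle tumours, and Loxl1, which acts on elastic fibres, had a log2 fold change of 2.05 ± 0.63. Loxl2, which acts on collagen IV, had 24.1, 20.6 and 28.7 CPM in ORIN1001 tumours, against 18.1, 14.9 and 9.43 CPM in vehicle tumours. All 3 genes showed no overlap between the groups, and the adjusted p was above 0.05 for each. Lum, which encodes the collagen-binding proteoglycan lumican, was low throughout, at 4.45, 4.95 and 16.4 CPM in ORIN1001 tumours and 0.567, 2.63 and 1.64 CPM in vehicle tumours. Serpinf1, which encodes the secreted anti-angiogenic serpin PEDF, had a log2 fold change of 1.26 ± 0.39.

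Of the 5 elastic fibre members 2 had a positive fold change, one of them Mfap5, and of the 8 network and other collagens 4 had one. Fbln1, which encodes fibulin-1, an elastic fibre and basement membrane glycoprotein, had 23.2, 26.0 and 31.2 CPM in ORIN1001 tumours, against 47.5, 59.1 and 38.1 CPM in vehicle tumours, with a log2 fold change of -0.85 ± 0.27. Col18a1, which encodes the basement membrane collagen that yields endostatin, had 703, 669 and 783 CPM in ORIN1001 tumours, against 1159.9, 1507 and 959 CPM in vehicle tumours. This was not particular to ORIN1001. Col18a1 was also below every vehicle tumour in docetaxel tumours (323, 895 and 936 CPM) and in combination tumours (815, 463 and 652 CPM). Fbln5 and Eln, which encode fibulin-5 and elastin, were also lower in every ORIN1001 tumour than in any vehicle tumour. None of the 4 passed the adjusted threshold. Of 15 other basement membrane genes tested, 3 were higher and 7 lower at an unadjusted p under 0.05, among them Nid1 (nidogen-1) at 1.70 ± 0.44 and Lama5 (a laminin chain) at -0.83 ± 0.29 on the log2 scale, and none passed the adjusted threshold.

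The type IV collagen chains were spread alike over these tumours. Col4a1 had 221, 249 and 228 CPM in ORIN1001 tumours, against 474, 369 and 205 CPM in vehicle tumours. Col4a2 had 118, 119 and 115 CPM in ORIN1001 tumours, against 222, 181 and 108 CPM in vehicle tumours. For both genes vehicle tumours 1 and 2 were above all ORIN1001 tumours and vehicle tumour 3 was below them, and the log2 fold changes were -0.59 ± 0.27 and -0.53 ± 0.39. The genes encode partner chains of 1 trimer and are arranged head to head on chromosome 8, where the annotations overlap by 85 bases from 11312805 to 11312889. Their promoter windows, from RefSeq on GRCm38.p6 and 300 bases long (250 before and 50 after each start), are shown because the pair shares its start region. Capitals mark the 78 bases that both windows share, read from opposite strands. The Col4a1 window is chr8:11312777-11313076 on the minus strand and the Col4a2 window chr8:11312555-11312854 on the plus strand.
Col4a1: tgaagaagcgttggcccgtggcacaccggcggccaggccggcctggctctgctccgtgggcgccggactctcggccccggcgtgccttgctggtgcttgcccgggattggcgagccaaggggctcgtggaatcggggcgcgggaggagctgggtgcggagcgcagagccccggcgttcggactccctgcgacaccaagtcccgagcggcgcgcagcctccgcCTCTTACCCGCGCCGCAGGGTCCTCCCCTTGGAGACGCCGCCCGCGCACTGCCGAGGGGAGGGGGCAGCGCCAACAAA
Col4a2: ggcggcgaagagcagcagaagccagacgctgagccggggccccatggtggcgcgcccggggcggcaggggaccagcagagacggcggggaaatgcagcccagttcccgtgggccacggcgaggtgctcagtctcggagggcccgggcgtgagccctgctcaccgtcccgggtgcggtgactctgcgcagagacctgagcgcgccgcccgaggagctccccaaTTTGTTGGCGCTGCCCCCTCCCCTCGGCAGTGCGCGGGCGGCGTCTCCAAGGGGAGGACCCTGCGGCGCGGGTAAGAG
The kit marks strand, but whether counting used it is not given in the sources used here, so reads in the overlap could have been counted for either gene.

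No marker of other cell types passed the adjusted threshold between ORIN1001 and vehicle tumours. The 10 endothelial markers summed to between 72.6 and 131 CPM in ORIN1001 tumours, against 37.5 to 56.2 CPM in vehicle tumours, and 8 of the 10 were higher at an unadjusted p under 0.05, with Cdh5 (VE-cadherin) at a log2 fold change of 1.35 ± 0.29. Of 8 pericyte markers, 5 were higher and 1 lower at that threshold, with Rgs5 at 1.67 ± 0.30. Their summed level was 198 to 285 CPM in ORIN1001 tumours, against 184 to 355 CPM in vehicle tumours. Adipocyte markers stayed between 12.0 and 32.0 CPM in ORIN1001 tumours, against 11.2 and 22.4 CPM in vehicle tumours. The part of vessel content in the matrix gene values was not tested. Of 25 genes for collagen hydroxylation, folding and trimming, 2 were higher and 1 lower at an unadjusted p under 0.05, and their median log2 fold change was -0.23. Of 19 genes of TGFβ signalling, the pathway that drives collagen transcription in fibroblasts, none was higher and 2 were lower at that threshold.

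**Figure D2:**
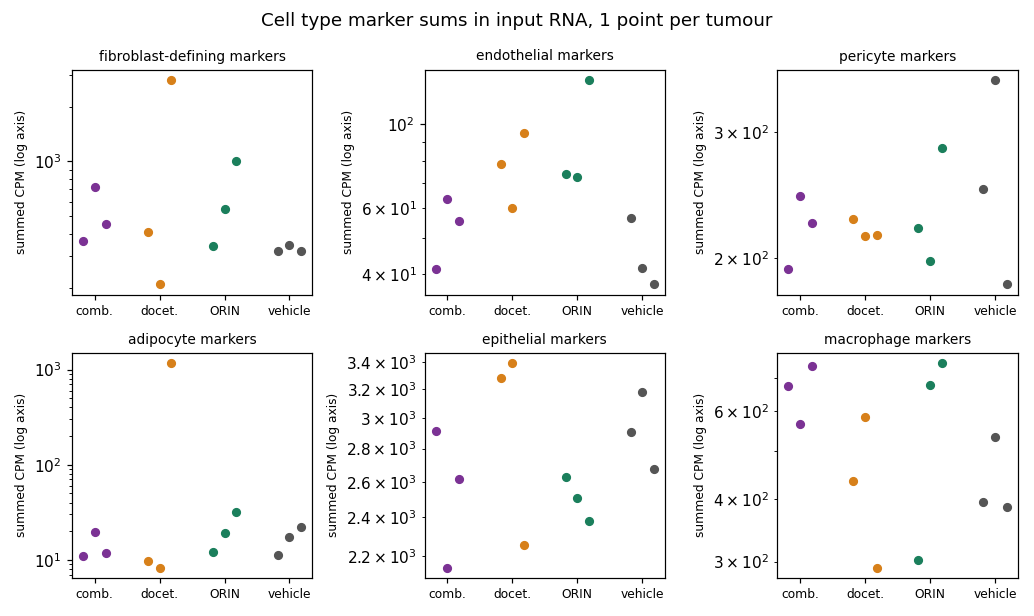
Summed input CPM (log axis) of 6 cell type marker lists, 1 point per tumour, in combination, docetaxel, ORIN1001 and vehicle tumours. Endothelial sums are higher in ORIN1001 tumours (72.6 to 131 CPM) than in vehicle tumours (37.5 to 56.2 CPM), and docetaxel tumour 3 has 1168 CPM of adipocyte markers.

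The second comparison asked the same for docetaxel alone. No member passed the adjusted threshold with edgeR, DESeq2 or limma-voom (0% of all genes did with edgeR), 6 of 38 had an unadjusted p under 0.05 (15.8%, against 10.5% of all genes), and the median log2 fold change of the 38 was -0.04. Docetaxel tumour 3 had the highest level of the docetaxel group for all 6 fibrillar collagens, but not for many other members. Postn had 6.26 CPM (5 counts) and Timp3 40.1 CPM (32 counts) there, against up to 76.8 and 176 CPM in docetaxel tumours 1 and 2. Col1a1 had 159, 54.7 and 1824 CPM in docetaxel tumours 1 to 3, against 117, 101 and 117 CPM in vehicle tumours. Col3a1 had 67.3, 13.4 and 359 CPM in docetaxel tumours, against 24.8, 38.4 and 43.1 CPM in vehicle tumours. Docetaxel tumour 2 was the lowest of all 12 inputs for both collagens and tumour 3 the highest, so the docetaxel group covered the whole range of the vehicle group. The log2 fold change of Col1a1 was 2.58 ± 1.00 with docetaxel tumour 3 and -0.064 without it, and that of Col5a3, a type V chain, was 2.71 ± 1.07 with it and -0.16 without it.

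Type I collagen was high in CPM in docetaxel tumour 3, on fewer counts than in any other input, and 4 other members had 0 counts there. Its 1824 CPM of Col1a1 rested on 1457 counts, and Col1a2, the partner chain, reached 453 CPM, while Lum, Dcn (decorin), Loxl1 and Tagln (transgelin, a smooth muscle actin-binding protein) had 0 counts. A count of 0 in this library allows up to 3.76 CPM (3 counts, counting error only). That limit is above the level of Lum, Dcn and Loxl1 in all 3 vehicle tumours, so lower levels of these genes were not detectable at this depth. The adipocyte markers summed to 1168 CPM in this library, against at most 9.64 CPM in the other docetaxel tumours. The J2 library of the same tumour also had the highest Col1a1 of its group, at 507 CPM, against 221 and 32.8 CPM in docetaxel tumours 1 and 2. The part of adipose tissue and of ribosomal RNA in these values was not tested.

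Fbln5, the lowest-p member with a decrease here, had 5.91, 12.1 and 5.01 CPM in docetaxel tumours, against 24.1, 14.8 and 16.2 CPM in vehicle tumours, with no overlap and a log2 fold change of -1.14 ± 0.43. Its 5.01 CPM in docetaxel tumour 3 rested on 4 counts. Tnc, which encodes the matricellular glycoprotein tenascin-C, had 10.2, 42.3 and 100.2 CPM in docetaxel tumours, against 96.5, 208 and 83.8 CPM in vehicle tumours, and docetaxel tumour 3 lay within the vehicle range. Its log2 fold change was -1.52 ± 0.65.

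**Figure D3:**
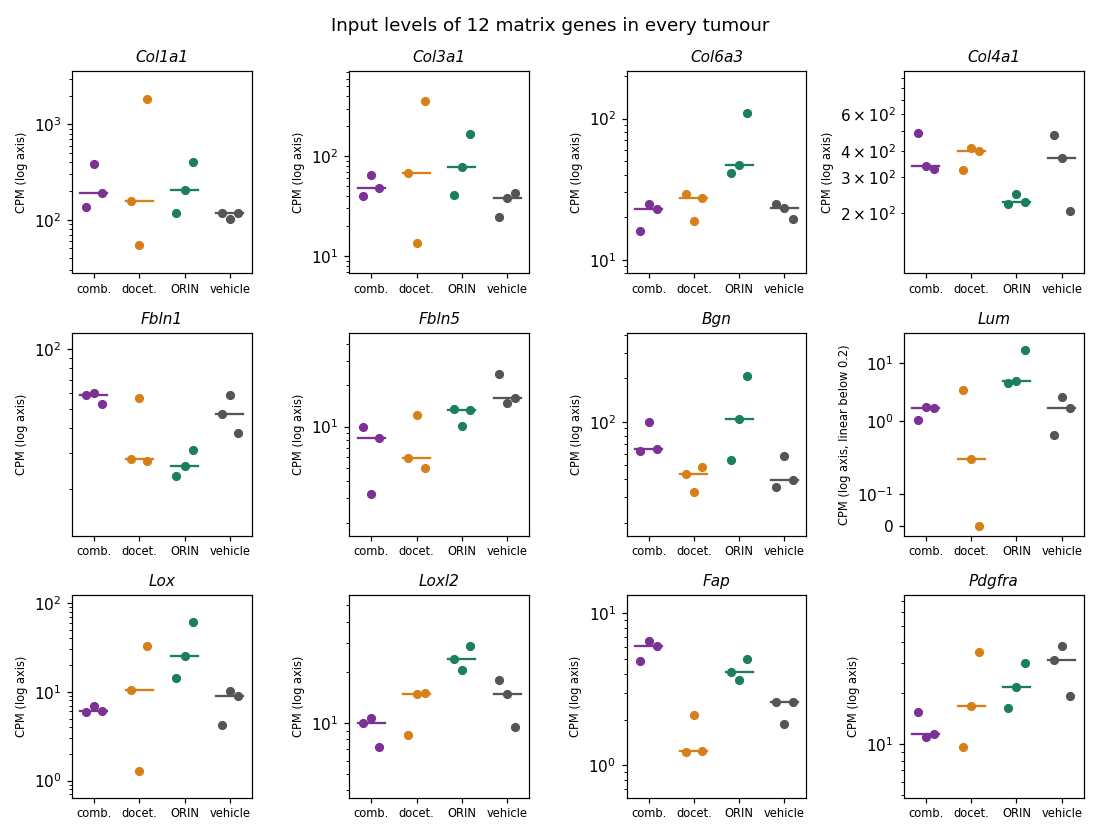
Input CPM (log axes; the Lum axis is linear below 0.2) of 12 matrix genes in every tumour, with 1 point per tumour and a line at the group median, for combination, docetaxel, ORIN1001 and vehicle tumours. Fap is highest in combination tumours (4.82 to 6.56 CPM), Fbln1 is lower in ORIN1001 tumours (23.2 to 31.2 CPM) than in combination tumours (53.1 to 60.3 CPM), and Col1a1 and Col3a1 spread most in docetaxel tumours.

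The combination was compared with vehicle and with each drug alone, and the comparisons share their libraries. Against vehicle, 1 of 38 members passed the threshold (2.63%, against 4.77% of all genes, and 2.8% in the higher direction), and this was Fap, which encodes fibroblast activation protein, a serine protease on the surface of activated fibroblasts. Fap had 4.82, 6.56 and 6.05 CPM in combination tumours, against 2.61, 1.86 and 2.63 CPM in vehicle tumours. In docetaxel tumours it had 1.23, 2.14 and 1.25 CPM, and in ORIN1001 tumours 4.09, 3.63 and 5.03 CPM. The 1.25 CPM of docetaxel tumour 3 rested on 1 count. Combination tumours lay above all vehicle and docetaxel tumours and overlapped with ORIN1001 tumours. Fap rose by 1.29 ± 0.30 on the log2 scale against vehicle (edgeR adjusted p = 0.042) and by 1.79 ± 0.34 against docetaxel (edgeR adjusted p = 0.020), where it was the only member of 38 past the threshold (2.63%, against 7.43% of all genes, and 5.46% in the higher direction). Against vehicle the adjusted p ran from 0.012 to 0.160 when 1 library was left out, and it missed 0.05 without any 1 of vehicle tumours 1, 2 and 3, ORIN1001 tumours 1, 2 and 3 or combination tumours 2 and 3. Against docetaxel it missed 0.05 without docetaxel tumour 1 or 2 or combination tumour 2 or 3.

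Pdgfra, which encodes the platelet-derived growth factor receptor of fibroblasts and their precursors, went the other way. It had 15.5, 10.95 and 11.53 CPM in combination tumours, against 31.6, 37.96 and 19.2 CPM in vehicle tumours, without overlap and with a log2 fold change of -1.22 ± 0.40 (edgeR adjusted p = 0.085). Postn, which encodes the matricellular protein periostin, had 68.3, 45.1 and 57.4 CPM in combination tumours, against 32.3, 20.0 and 16.05 CPM in vehicle tumours. Fbln5 had 9.89, 3.21 and 8.27 CPM in combination tumours, against 24.1, 14.8 and 16.2 CPM in vehicle tumours. With docetaxel tumour 3 left out of the fit, 5 of 38 members passed against vehicle, where 28% of all genes did. Fap (1.31), Postn (1.34) and Timp2 (1.04), an inhibitor of matrix metalloproteinases, were higher, and Fbln5 (-1.34) and Pdgfra (-1.21) lower, in log2 fold change. Fibrillar collagens did not pass: Col1a1 had 135, 383 and 189 CPM in combination tumours, all above the 117, 101 and 117 CPM of vehicle tumours, at a log2 fold change of 1.08 ± 0.95. Markers of macrophages summed to between 567 and 739 CPM in combination tumours, against 385 to 532 CPM in vehicle tumours, and endothelial markers to between 41.3 and 63.3 CPM in combination tumours, against 37.5 to 56.2 CPM in vehicle tumours. The 8 neutrophil markers summed to between 21.3 and 34.5 CPM in combination tumours, against 52.02 to 100.6 CPM in vehicle tumours, and of the 7 tested 3 passed, all lower. The part of these cells in the matrix gene values was not tested.

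Between the combination and ORIN1001 alone, 3 of 38 members passed the threshold (7.89%, against 12.6% of all genes). Of these, 2 were lower (5.26%, against 5.43%) and 1 higher (2.63%, against 7.2%). The count ran from 0 to 11 with 1 library left out, so no difference from all genes is read from it. Col6a3 fell to 15.99, 24.7 and 22.8 CPM in combination tumours, against 40.9, 46.8 and 109 CPM in ORIN1001 tumours, a log2 fold change of -1.63 ± 0.35 (edgeR adjusted p = 0.021). Loxl2 fell to 10.1, 10.7 and 7.21 CPM in combination tumours, against 24.1, 20.6 and 28.7 CPM in ORIN1001 tumours (-1.39 ± 0.30, edgeR adjusted p = 0.022). Fbln1 rose to 59.1, 60.3 and 53.1 CPM in combination tumours, against 23.2, 26.0 and 31.2 CPM in ORIN1001 tumours (1.10 ± 0.27, edgeR adjusted p = 0.030). None of these 3 genes overlapped between the groups, and in all 3 the combination tumours overlapped with the vehicle tumours.

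The median log2 fold change was -0.60 over the 38 members and -0.02 over all genes, and over the members it was -0.17 without ORIN1001 tumour 3. In 13 members every combination tumour was below every ORIN1001 tumour (34.2%, against 28.1% of all genes), and in 4 every combination tumour was above (10.5%, against 25.4%). Lox had 5.86, 6.91 and 6.00 CPM in combination tumours, against 14.4, 25.2 and 61.3 CPM in ORIN1001 tumours, with a log2 fold change of -2.43 ± 0.83. Loxl1 and Mfap5 had log2 fold changes of -1.90 ± 0.63 and -2.11 ± 0.70. Without docetaxel tumour 3, 11 members passed (35.2% of all genes did), 10 of them lower (Col5a3, Col6a2, Col6a3, Col15a1, Mfap5, Lum, Lox, Loxl1, Loxl2 and Tagln) and Fbln1 higher. Without docetaxel tumour 1 the count was 6 and without docetaxel tumour 2 it was 7. It was 2 without combination tumour 1, 1 without ORIN1001 tumour 2 and 0 without ORIN1001 tumour 3, combination tumour 2 or combination tumour 3.

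One pericyte and one endothelial marker were lower in combination tumours, as Col6a3 and Loxl2 were. Cdh5 had a log2 fold change of -1.58 ± 0.29 (edgeR adjusted p = 0.017), Rgs5 of -1.14 ± 0.29 (edgeR adjusted p = 0.033), and 1 of 10 endothelial and 1 of 8 pericyte markers passed. Endothelial markers summed to between 41.3 and 63.3 CPM in combination tumours, against 72.6 to 131 CPM in ORIN1001 tumours. The neutrophil markers S100a8 and S100a9 also differed, with log2 fold changes of -3.68 and -3.31, and 5 of 7 neutrophil markers passed. The part of these cells in the matrix gene values was not tested. Of 19 genes of TGFβ signalling 3 passed, all higher, and these were Tgfbi (1.68 ± 0.31), Tgfbr1 (1.61 ± 0.30) and Ltbp4 (1.53 ± 0.45). Of 25 collagen-processing genes, Ppib alone passed, which encodes the prolyl isomerase cyclophilin B and fell by 1.38 on the log2 scale.

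**Figure D4:**
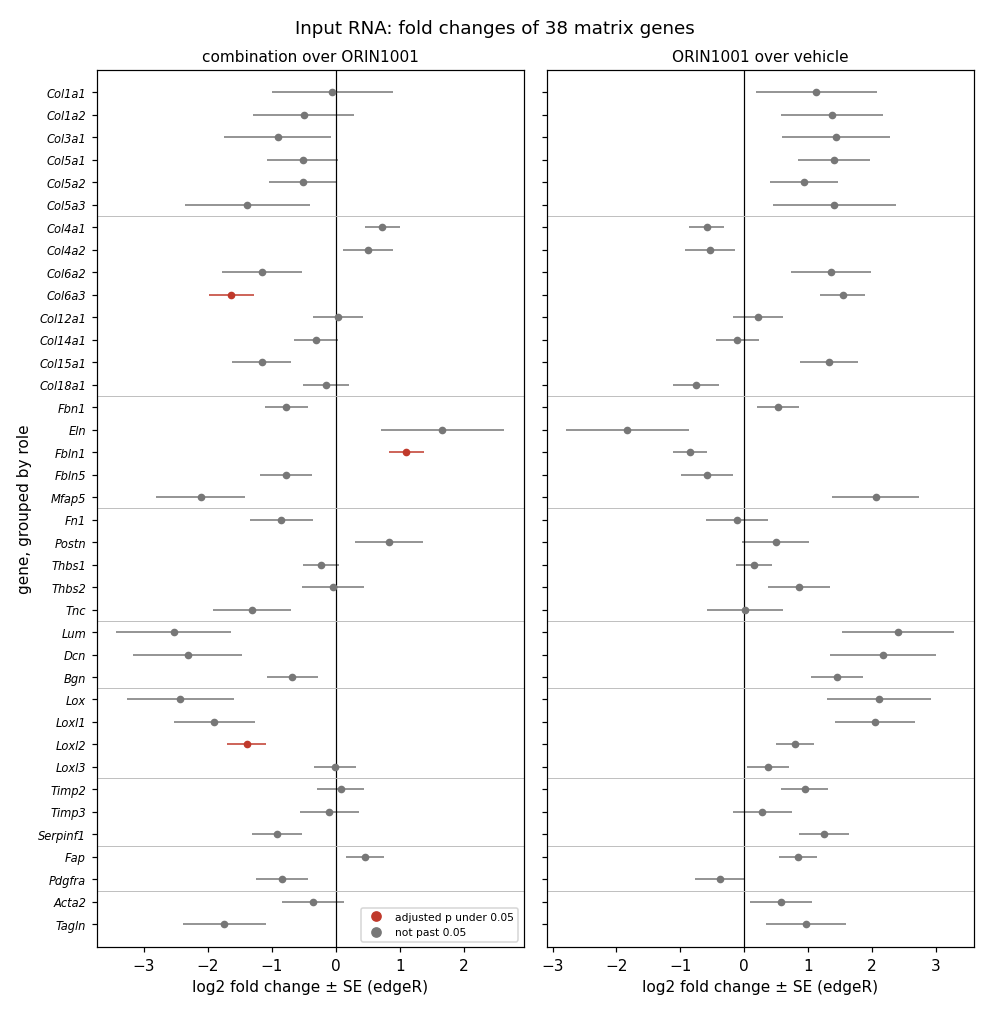
Log2 fold changes (points) with SE (bars) of the 38 matrix genes in input RNA, for the combination over ORIN1001 and for ORIN1001 over vehicle; red marks an adjusted p under 0.05. Most genes lie left of 0 for the combination over ORIN1001 (median -0.60) and right of 0 for ORIN1001 over vehicle (median 0.85), and both fits use the ORIN1001 tumours, with opposite sign.

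Other members varied without passing the test in any input comparison. Fn1, which encodes the adhesive glycoprotein fibronectin, had 277, 68.2 and 171 CPM in combination tumours, 118, 343 and 168 CPM in docetaxel tumours, 359, 180.3 and 389 CPM in ORIN1001 tumours and 321, 384 and 304 CPM in vehicle tumours. Combination tumours were below all vehicle tumours and overlapped with both single drugs. Thbs1, which encodes thrombospondin-1, a matricellular activator of latent TGFβ, ran from 258 to 343 CPM in combination tumours, 169 to 343 CPM in docetaxel tumours, 250.2 to 467 CPM in ORIN1001 tumours and 295 to 345 CPM in vehicle tumours, with overlap of all groups.

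The contractile genes that mark myofibroblasts, smooth muscle and pericytes were low and scattered. Acta2 had 36.0, 9.56 and 28.7 CPM in combination tumours, 46.3, 37.9 and 15.0 CPM in docetaxel tumours, 23.6, 29.9 and 42.0 CPM in ORIN1001 tumours and 31.1, 20.0 and 13.1 CPM in vehicle tumours. Tagln had 3.17, 1.40 and 3.47 CPM in combination tumours, 5.07, 2.81 and 0 CPM in docetaxel tumours, 3.81, 10.5 and 12.8 CPM in ORIN1001 tumours and 7.96, 3.81 and 2.09 CPM in vehicle tumours. Acta2 overlapped between all groups, and Tagln was lower in every combination tumour than in any ORIN1001 tumour.

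Promoter windows of Col6a3 and Fbln1 are shown because these genes passed the test between the combination and ORIN1001 in opposite directions. They come from RefSeq on GRCm38.p6, at chr1:90843922-90844221 on the minus strand for Col6a3 and chr15:85205699-85205998 on the plus strand for Fbln1, in 300 bases each. Both windows were searched on both strands for CCAAT and for the GC box GGGCGG, and neither motif was found in these letters, so no base is in capitals. Fbln1 has 2 windows, and the one not shown holds GGGCGG.
Col6a3: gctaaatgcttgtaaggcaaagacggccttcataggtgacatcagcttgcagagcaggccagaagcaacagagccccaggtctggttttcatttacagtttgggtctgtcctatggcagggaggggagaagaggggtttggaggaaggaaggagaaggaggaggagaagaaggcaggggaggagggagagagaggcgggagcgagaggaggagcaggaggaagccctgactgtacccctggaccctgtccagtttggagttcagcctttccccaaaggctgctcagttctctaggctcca
Fbln1: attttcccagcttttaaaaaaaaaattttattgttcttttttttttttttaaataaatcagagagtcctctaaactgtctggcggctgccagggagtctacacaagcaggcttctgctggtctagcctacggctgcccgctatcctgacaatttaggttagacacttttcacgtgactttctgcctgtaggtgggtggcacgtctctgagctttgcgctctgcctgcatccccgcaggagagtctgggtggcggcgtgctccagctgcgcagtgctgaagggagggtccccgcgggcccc
Windows were found for 22 of the 38 genes, 28 windows in all. CCAAT was in 10 of the 28 (37.4% of all 32851 windows hold it) and GGGCGG in 16 of 28 (35.7% of all). The SMAD element CAGACA was in 12 of 28 (21.0% of all) and the TATA box TATAAA in 5 of 28 (13.6% of all). The XBP1 element TGACGTG, the AP-1 site TGANTCA, the CArG box and the ER stress element, in which CCAAT is followed by CCACG after 9 bases, were in none of the 28, against 2.01%, 7.81%, 1.63% and 0.119% of all windows.

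In the test of whether both drugs together differ from the sum of their single effects, no member and no gene passed with edgeR (0%), while DESeq2 and limma-voom called 3 members each. At an unadjusted p under 0.05 there were 8 members (21.1%, against 17.6% of all genes), 7 of them lower than the sum (18.4%, against 6.62%) and 1, Fbln1, higher (2.63%, against 11%), at 1.41 ± 0.38 on the log2 scale. Col6a3 had -1.77 ± 0.50 and Loxl2 -1.20 ± 0.43. In the test for any difference among the 4 treatments, 4 of 38 members passed (10.5%, against 8.63% of all genes), and these were Fap (edgeR adjusted p = 0.026), Col6a3 (0.027), Loxl1 (0.042) and Loxl2 (0.046). Without docetaxel tumour 3 the number was 16, where 30.8% of all genes passed. It was 7 without docetaxel tumour 1, 2 without vehicle tumour 1, vehicle tumour 2 or combination tumour 1, and 0 without ORIN1001 tumour 2 or 3 or combination tumour 2 or 3.

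J2-bound RNA was then set against input RNA of the same tumour, to ask which of these transcripts are taken up by an antibody to double-stranded RNA. Here log2 ratios are of CPM scaled over all 24 libraries, so that a value above 0 means a higher scaled level in J2 than in input RNA. Averaged over treatments, 22 of 38 members passed (57.9%, against 55.0% of all genes), 2 of them higher in J2 (5.26%, against 25.0%) and 20 lower (52.6%, against 30.0%). The 2 higher genes were Col1a1 (0.99 ± 0.17, edgeR adjusted p = 0.00018) and Col1a2 (0.44 ± 0.12, edgeR adjusted p = 0.0066), the chains of type I collagen. Their mean log2 ratios were highest in combination tumours, at 2.95 for Col1a1 and 2.16 for Col1a2. They were -0.62 and -0.79 in docetaxel tumours, 0.96 and 0.39 in ORIN1001 tumours, and 0.69 and -0.01 in vehicle tumours. The lowest p of the genes lower in J2 belonged to Fbln5 (-1.13 ± 0.13), Col6a3 (-0.69 ± 0.09), Fbln1 (-0.93 ± 0.12), Serpinf1 (-1.36 ± 0.20), Acta2 (-0.98 ± 0.15), which encodes smooth muscle actin, and Thbs2 (-0.77 ± 0.12), which encodes the matricellular protein thrombospondin-2. The median log2 ratio of the 38 was -0.45, against -0.05 over all genes.

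Within vehicle tumours, 16 members passed (42.1%, against 41.4% of all genes), 15 lower in J2 (39.5%, against 21.1%) and 1 higher (2.63%, against 20.2%), which was Fap (1.11 ± 0.30). Fap had log2 ratios of 1.51, 0.61 and 1.10 in vehicle tumours, on 98, 40 and 65 J2 counts. Acta2 had log2 ratios of -1.78, -1.51 and -1.64 in vehicle tumours, and Serpinf1 of -2.33, -2.21 and -1.66. Within ORIN1001 tumours 12 passed (31.6%, against 28.1% of all genes), 11 of them lower (28.9%, against 14.9%) and 1 higher (2.63%, against 13.2%), which was Col1a1 (0.96 ± 0.34). The 11 lower ones were Col6a2, Col6a3, Col12a1, Fbln1, Fbln5, Postn, Dcn, Bgn, Serpinf1, Acta2 and Tagln. Within docetaxel tumours 17 passed (44.7%, against 23.9% of all genes), 15 of them lower (39.5%, against 12%) and 2 higher (5.26%, also against 12%), with Fap (1.32 ± 0.35) and Timp3 (0.59 ± 0.19), an inhibitor of metalloproteinases bound to the matrix, the 2 higher ones. The lower ones included Col3a1, Col6a3, Col15a1, Eln and Fbln1. In that fit only 2 of the 38 were above 0, and the median was -0.68, against -0.02 over all genes. All 6 fibrillar collagens were below 0 there, with a median of -0.72. The input level of Fap in docetaxel tumour 3 rested on 1 count. The vehicle count was 11, 12 and 10 without vehicle tumour 1, 2 and 3, the ORIN1001 count 7, 0 and 2 without ORIN1001 tumour 1, 2 and 3, and the docetaxel count 8 and 1 without docetaxel tumour 1 and 2. The ORIN1001 count was also 5, 5 and 6 without vehicle tumour 1, 2 and 3 and 7 without combination tumour 3.

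Combination tumours had another pattern. Of 19 members that passed (50.0%, against 36.8% of all genes), 11 were higher in J2 (28.9%, against 16.3%) and 8 lower (21.1%, against 20.5%). All 6 fibrillar collagens were among the higher ones. Col1a1 had log2 ratios of 2.57, 3.08 and 3.19 in combination tumours, 0.54, -0.66 and -1.74 in docetaxel tumours, 1.78, 0.54 and 0.56 in ORIN1001 tumours and 0.71, 0.72 and 0.64 in vehicle tumours. Col1a2 had 1.91, 2.25 and 2.31 in combination tumours, -0.11, -0.95 and -1.31 in docetaxel tumours, 1.08, 0.02 and 0.07 in ORIN1001 tumours and 0.07, -0.27 and 0.16 in vehicle tumours. The 3 combination tumours stood above the other 9 tumours for both genes. In CPM, Col1a1 reached 728, 2912 and 1526 in combination J2 libraries, on 1369, 6642 and 15252 counts, against 175, 158 and 166 CPM in vehicle J2 libraries.

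The difference in J2 enrichment between combination and vehicle tumours passed for 16 of 38 members (42.1%, against 29.9% of all genes), 14 higher (36.8%, against 12.7%) and 2 lower (5.26%, against 17.1%). The fibrillar chains moved together. The change was 2.26 ± 0.47 for Col1a1, 2.17 ± 0.34 for Col1a2, 1.83 ± 0.35 for Col3a1, 1.62 ± 0.30 for Col5a1, 0.99 ± 0.28 for Col5a2 and 2.35 ± 0.59 for Col5a3, as log2 J2 enrichment in combination less that in vehicle tumours. Among other collagens Col6a2 (1.88 ± 0.44), Col18a1 (1.35 ± 0.33) and Col15a1 (1.19 ± 0.32) rose. Of the elastic fibre genes Eln (2.15 ± 0.42) and Fbln1 (1.31 ± 0.33) rose, and Loxl3, Acta2 and Tnc completed the 14. Fbln1 was below 0 in every vehicle tumour, at -1.39, -1.30 and -1.89, and stood at -0.50, 0.23 and -0.37 in combination tumours. Col4a1 and Col6a3 did not pass, at 0.62 ± 0.35 and 0.40 ± 0.25.

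Fap and Timp3 went the other way. Fap had log2 ratios of -1.40, -1.40 and -0.64 in combination tumours, on 3, 5 and 34 J2 counts, against 1.51, 0.61 and 1.10 in vehicle tumours, a change of -2.15 ± 0.47 (edgeR adjusted p = 0.0049). Timp3 had -0.82, -1.29 and -1.60 in combination tumours, against 0.32, 0.25 and 0.08 in vehicle tumours, a change of -1.47 ± 0.27 (edgeR adjusted p = 0.0019). Neither gene overlapped between the groups. Fap had the higher level in the input RNA of combination tumours and the lower J2 enrichment, and the input level is the denominator of that ratio.

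Genes of other lists also rose in J2 enrichment. Of 16 basement membrane genes 7 rose in J2 enrichment and none fell, with Lamb2, a laminin chain, at 1.37 ± 0.32. Of 17 other collagens 6 rose and none fell, with Col9a3 at 1.71 ± 0.29. Of 25 collagen-processing genes 5 rose, including Bmp1, the protease that trims procollagen, at 1.54 ± 0.29. Of 11 epithelial markers 7 rose, with Krt14 at 1.89 ± 0.45, so the rise was not particular to matrix genes. The combination J2 libraries are those with 22.8% to 57.0% ribosomal counts, and the part of this in the change was not tested beyond the removal of the ribosomal rows, after which the count was again 16. With any 1 tumour left out, 13 to 21 members passed, 21 of them without docetaxel tumour 3, where 41.2% of all genes passed. When J2 and input libraries were fitted without the pairing by tumour, 1 member passed.

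No member changed its J2 enrichment past the threshold with either drug alone, and no gene did with edgeR (0% in both). DESeq2 called 0 members in both, and limma-voom 9 with ORIN1001 and 0 with docetaxel. At an unadjusted p under 0.05, ORIN1001 against vehicle gave 2 members, Fap and Acta2 (5.26%, against 3.49% of all genes), and docetaxel against vehicle 6 (15.8%, against 4.21%). For Col1a1 the changes were -1.31 ± 0.48 with docetaxel and 0.27 ± 0.47 with ORIN1001, as log2 J2 enrichment with drug less that with vehicle.

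**Figure D5:**
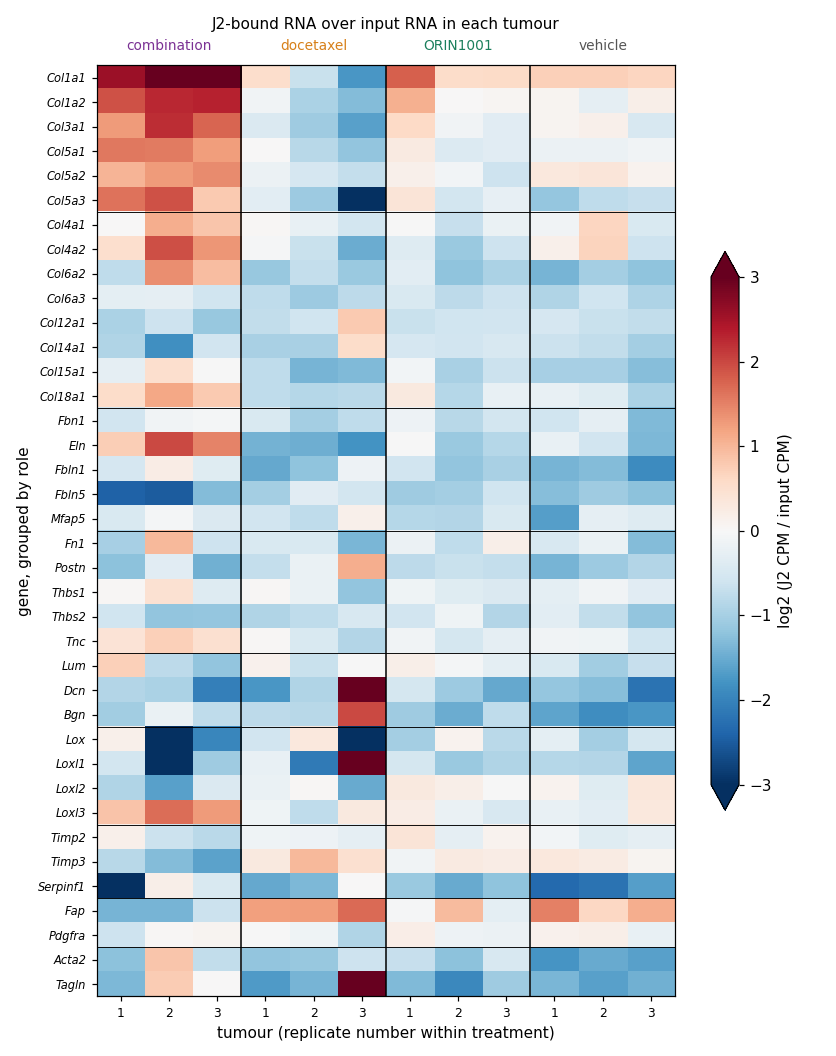
Log2 ratio of J2 CPM to input CPM for the 38 matrix genes (rows, grouped by role) in each of the 12 tumours (columns); colours beyond 3 are clipped. Fibrillar collagens are red in all 3 combination tumours (Col1a1 at 2.57 to 3.19), most other genes are blue in the vehicle tumours, and the extreme colours of Dcn, Loxl1 and Tagln in docetaxel tumour 3 rest on inputs of 0 counts.

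The promoter window of Col1a2 is shown since this gene had the smallest p of the 38 for the change between combination and vehicle tumours. It is from RefSeq on GRCm38.p6, chr6:4505368-4505667 on the plus strand, in 300 bases, with the 2 CCAAT and 2 GGGCGG matches in capitals (CCAAT on the opposite strand reads as ATTGG).
Col1a2: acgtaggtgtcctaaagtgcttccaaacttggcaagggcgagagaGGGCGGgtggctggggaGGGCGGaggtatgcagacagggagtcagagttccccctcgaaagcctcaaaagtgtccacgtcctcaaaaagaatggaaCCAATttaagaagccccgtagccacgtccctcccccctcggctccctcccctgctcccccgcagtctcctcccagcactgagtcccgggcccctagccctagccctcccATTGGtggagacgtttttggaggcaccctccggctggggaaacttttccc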

How the data were processed

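Total RNA (input) and J2-bound RNA of 12 tumours were measured in 24 libraries, grouped by their titles. The deposited values are raw counts per gene, and the submitters' processing notes name featureCounts 2.0.3, STAR 2.7.3a and fastp 0.23.2 and, as the build, mm10, with no role or order. The strand setting is not given in the sources used here. The deposited table of transposable element counts was not used here. Of 53465 rows, 53274 were matched to a symbol, and the others kept their Ensembl identifier. Replicates are labelled biological, and no pair of replicates within a group looked like 1 library deposited under 2 names (smallest chi-square per degree of freedom 11.5). Pairs across groups were not compared.

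Counts were fitted with edgeR 4.0.16 in R 4.3.3 (TMM, filterByExpr with a minimum count of 10 and a total of 15, quasi-likelihood F test, two-sided, Benjamini-Hochberg adjustment over all genes, threshold 0.05). The 12 inputs were fitted with 1 coefficient per treatment, and J2 enrichment per treatment on all 24 libraries, blocked by tumour, since the series pairs each J2 library with its input. After group means were removed, 10 of 12 tumours had a correlation above 0.1 between their libraries (lowest 0.0912). Log2 J2 ratios of single tumours used a prior count of 2. Spreads are SE derived from the test, as the absolute log2 fold change over the square root of its F statistic. With 3 tumours a group, an exact permutation test could not go below p = 0.1 and was not used. On simulated counts with 200 changed genes, both fits were tested and recovered the changes. Those counts had the same dispersion for every gene, no tumour effects, and changes only in genes above the median level. They checked the code, and cannot tell how well the fits do on the more variable real libraries.

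The alternatives were DESeq2 1.42.0, RLE scaling, limma-voom (limma 3.58.1) with sample weights, no low-count filter, removal of 186 ribosomal rows, fits of the compared groups alone, other pairing, and each library or tumour left out.

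The members and lists were chosen with earlier results of these data known. In each comparison members past the threshold were picked, or the 6 with the smallest p where under 5 or over 12 passed. Up to 3 genes of each other list were also picked. Values are given above for some but not all of those picked. Values per library are given for members with the highest level or smallest p in each role and for Pdgfra, Fap, Acta2 and Tagln, and other members named were chosen after their values were seen. Promoter sequences are from RefSeq (GRCm38.p6). Figures were drawn with matplotlib 3.10.9.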

Additional observations from a re-analysis of the deposited data

Results flagged for a closer look

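These results were singled out because the J2 enrichment of a gene differed between combination and vehicle tumours in a test of that difference (edgeR's quasi-likelihood test with the tumour as a block). As log2 J2 enrichment in combination less that in vehicle tumours, the differences were 2.26 for Col1a1, 2.17 for Col1a2, 1.83 for Col3a1, 1.62 for Col5a1, 0.99 for Col5a2 and 2.35 for Col5a3 among fibrillar collagens. Among other collagens they were 1.88 for Col6a2, 1.19 for Col15a1 and 1.35 for Col18a1. They were 2.15 for Eln, 1.31 for Fbln1, 0.80 for Tnc, 1.37 for Loxl3 and 1.23 for Acta2. Timp3 differed by -1.47 and Fap by -2.15. The combination J2 libraries held 22.8% to 57.0% ribosomal counts and 2.54 to 11.04 M gene counts in all, against 4.13% to 6.05% and 12.3 to 14.9 M in vehicle J2 libraries. Whether these differences of the libraries take part in the result was not tested beyond the removal of ribosomal rows, after which 16 members passed, as before.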

How the results depend on the processing

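The share of all genes called moved with the setting. For combination against ORIN1001 it was 12.6% in the fit reported and 35.2% without docetaxel tumour 3. For most alternatives that share is not given here or above, so a higher count of members cannot be read as a stronger result for them. The number of members called, of 38, moved with the alternatives as follows. Combination against ORIN1001 gave 3 in the fit reported, 10 with DESeq2, 21 with limma-voom, 16 with only the groups compared and 0 to 11 with 1 library left out. Combination against vehicle gave 1, and 3 with DESeq2, 8 with limma-voom, 6 with only the groups compared, 0 with no low-count filter and 0 to 5 with 1 library left out. Combination against docetaxel gave 1, and 2 with DESeq2, 2 with limma-voom, 0 with only the groups compared and 0 to 1 with 1 library left out. Any treatment gave 4, and 14 with DESeq2, 23 with limma-voom and 0 to 16 with 1 library left out. The interaction gave 0, and 3 with DESeq2, 3 with limma-voom and 0 to 0 with 1 library left out. ORIN1001 against vehicle gave 0, and 1 with DESeq2 and 0 to 0 with 1 library left out, and docetaxel against vehicle 0 to 0. No cause of these moves was tested.

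The labels do not say that a replicate number shared across treatments pairs the input libraries, and 0 of 18 such pairs correlated above 0.1. Their highest correlation was 0.0929, while the J2 and input libraries of the same tumour went as low as 0.0912. This cut therefore cannot exclude a pairing. With the replicate number as a block, 0 members passed for combination against vehicle, 0 against docetaxel, 3 against ORIN1001, 0 for any treatment and 0 in the other input comparisons. For J2 over input, fits with no replicate block (libraries unpaired) called 14 members in place of 22 for the average, 4 in place of 16 in vehicle tumours, 0 in place of 12 in ORIN1001 tumours, 1 in place of 17 in docetaxel tumours, 6 in place of 19 in combination tumours, 1 in place of 16 for combination against vehicle, and 0 for either single drug against vehicle.

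Limma-voom called 28 members in vehicle tumours, 25 in ORIN1001 tumours and 9 for ORIN1001 against vehicle, and the fit with no low-count filter 2 for docetaxel against vehicle. With 1 tumour left out the J2 counts ran from 18 to 24 for the average, 10 to 19 in vehicle tumours, 0 to 16 in ORIN1001 tumours, 1 to 19 in docetaxel tumours, 13 to 25 in combination tumours and 13 to 21 for combination against vehicle, and stayed at 0 for either single drug. Each upper end came without docetaxel tumour 3, where 61.6%, 51.6%, 40.1%, 39.8%, 46% and 41.2% of all genes passed, in that order.

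Among values of single members under the alternatives, 1471 kept their direction and side of the threshold, 45 newly passed it, 125 no longer did and 9 reversed. For docetaxel against vehicle, limma-voom gave -0.30 for Col1a1, -0.34 for Col3a1 and -0.40 for Col5a3, and with 1 library left out the values ran from -0.064 to 3.11 for Col1a1 and from -0.16 to 3.36 for Col5a3, lowest without docetaxel tumour 3. For combination against docetaxel, limma-voom gave 0.90 for Col3a1 and 0.21 for Col5a3, and with 1 library left out they ran from -1.9997 to 0.37 and from -3.34 to 0.20, highest without docetaxel tumour 3. The median of the 38 members kept its sign under every alternative run for ORIN1001 against vehicle (0.43 to 1.05), combination against ORIN1001 (-0.82 to -0.17), the interaction and all J2 comparisons but docetaxel against vehicle. It changed sign under some alternatives for docetaxel against vehicle (-0.33 to 0.11), combination against vehicle (-0.0050 to 0.22) and combination against docetaxel (-0.19 to 0.35), and for the J2 change of docetaxel against vehicle (-0.26 to 0.020). Depth limits genes with few counts, such as Fap (3, 5 and 34 counts) in combination J2 libraries.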
